A study of Mus musculus with 8 samples.

Results

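Keratin genes were examined in the chromatin of the mouse lens, a tissue that forms from surface ectoderm, as the epidermis, hair and corneal epithelium do. The members are the protein-coding genes of RefSeq GRCm38 whose symbol is Krt followed by a number and at most 1 letter, which leaves out the keratin-associated protein (Krtap) genes. The rule found 53 genes among 21774 protein-coding genes on the 19 autosomes, X and Y. Of these, 27 type I genes lie on chromosome 11 between positions 99232761 and 100269951, 25 type II genes lie on chromosome 15 between positions 101348315 and 102004342, and Krt18, a type I gene, lies beside the type II cluster at 102028216 to 102032026.

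Open chromatin was measured by ATAC-seq, in which the Tn5 transposase inserts adapters into DNA that is not covered by nucleosomes. Lenses of CD1 mice at E14.5 (embryonic) and P0.5 (newborn) were dissected into epithelium and fibers, and 2 libraries were made for each tissue at each age. The resulting 4 groups are, at the embryonic stage, E14.5 epithelium and E14.5 fiber and, at the newborn stage, P0.5 epithelium and P0.5 fiber. Wherever 4 values follow each other without a name, they stand in this order. The mice carried no named allele and received no named treatment. The 2 libraries of a group were pooled before peaks were called, so each group is 1 list of peaks without a replicate spread, and no difference between lists was tested. The lists hold 100003, 123743, 58592 and 62995 peaks. Read depth per library cannot be read from the lists.

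Keratins are the intermediate filament proteins of epithelial cells. A filament needs an acidic type I partner and a neutral or basic type II partner, and the pairs change with the epithelium: Krt8 with Krt18 in simple epithelia, Krt5 with Krt14 in the basal layer of stratified epithelia, and Krt1 with Krt10 in the epidermal layers above it. The lens builds its cytoskeleton mainly from another set of filament proteins, vimentin and the beaded filament proteins Bfsp1 and Bfsp2.

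The regions below introduce the keratin genes whose peaks recur through the lists. The Krt8 sequence is the window of 300 bases at the summit of the strongest keratin peak, in the first intron, chr15:102002933-102003232, minus strand. The Krt18 and Krt7 sequences are the 250 bases before the start site from the RefSeq promoter table (GRCm38.p6), chr15:102027966-102028215 and chr15:101412153-101412402, plus strand. Capitals mark matches on either strand to the letters searched for AP-1 (TGANTCA), Tead (GGAATG), Sp and Klf factors (GGGCGG), AP-2 (GCCNNNGGC), the TATA box (TATAAA) and the Maf core site (TGCTGA).
Krt8: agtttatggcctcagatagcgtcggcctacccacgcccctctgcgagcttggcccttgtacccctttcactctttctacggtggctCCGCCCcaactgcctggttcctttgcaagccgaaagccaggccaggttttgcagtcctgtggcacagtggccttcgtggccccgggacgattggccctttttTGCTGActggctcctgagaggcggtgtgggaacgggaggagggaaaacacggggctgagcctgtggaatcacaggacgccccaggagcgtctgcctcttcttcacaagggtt
Krt18: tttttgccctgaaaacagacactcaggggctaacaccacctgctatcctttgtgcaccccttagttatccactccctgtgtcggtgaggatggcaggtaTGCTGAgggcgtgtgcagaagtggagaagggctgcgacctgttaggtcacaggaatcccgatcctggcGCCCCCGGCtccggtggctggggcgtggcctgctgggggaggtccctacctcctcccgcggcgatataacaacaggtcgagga
Krt7: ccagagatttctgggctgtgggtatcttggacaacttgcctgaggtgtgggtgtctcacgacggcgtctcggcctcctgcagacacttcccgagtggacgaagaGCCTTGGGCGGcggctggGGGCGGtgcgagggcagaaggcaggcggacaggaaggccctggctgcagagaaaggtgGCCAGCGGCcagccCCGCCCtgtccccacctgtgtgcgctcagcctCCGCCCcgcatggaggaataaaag

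The Krt8 window held 1 Sp/Klf match and 1 Maf core site, and no match to the other letters. Among the windows of 300 bases at all summits of the E14.5 fiber list, 16.1% held the Sp/Klf letters and 31.6% held the Maf core site, so both are common in this list. The Krt18 promoter held 1 AP-2 match and 1 Maf core site. The Krt7 promoter held 4 Sp/Klf matches and 2 AP-2 matches, of which 1 pair overlaps. Among the 17492 protein-coding genes in the promoter table, 42.7% held the Sp/Klf letters in the 250 bases before the start site, 16.0% held the AP-2 letters and 14.8% held the Maf core site. A match is a stretch of letters and was not tested for binding.

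The second set of sequences comes from peaks that lie far from start sites, inside the exons that encode the glycine-rich keratin tails. Each is at most 120 coding bases around a summit, on the minus strand, and capitals mark the glycine codons (GGN) in frame. The windows are chr11:99385991-99386110 in exon 7 of 8 of Krt10, and chr15:101859856-101859959, chr15:101553220-101553339 and chr15:101929804-101929923 in the last coding exon of Krt77, Krt90 and Krt79.
Krt10: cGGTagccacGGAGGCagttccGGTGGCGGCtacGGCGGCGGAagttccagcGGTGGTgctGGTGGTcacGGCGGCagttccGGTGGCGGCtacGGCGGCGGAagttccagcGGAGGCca
Krt77: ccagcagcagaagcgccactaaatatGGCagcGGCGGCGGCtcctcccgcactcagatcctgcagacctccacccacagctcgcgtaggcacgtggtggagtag
Krt90: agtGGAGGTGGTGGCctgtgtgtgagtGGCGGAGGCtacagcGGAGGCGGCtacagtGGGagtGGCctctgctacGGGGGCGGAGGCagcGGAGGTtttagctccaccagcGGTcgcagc
Krt79: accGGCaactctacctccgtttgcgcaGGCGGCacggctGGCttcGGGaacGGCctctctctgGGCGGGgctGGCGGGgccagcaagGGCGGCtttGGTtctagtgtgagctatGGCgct

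Glycine codons made up 23 of 39 codons in the Krt10 window, 19 of 40 in Krt90, 14 of 40 in Krt79 and 4 of 34 in Krt77, whose window reaches the stop codon. The peaks over these windows are described after the genes.

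A keratin gene was counted as having a peak when a peak overlapped its gene body or the 2 kb on either side of a start site, and as having a promoter peak when it overlapped the latter. In E14.5 epithelium 21 of the 53 keratin genes (39.6%) had a peak, beside 73.3% of all protein-coding genes. In E14.5 fibers 23 (43.4%) had one, beside 74% of all genes. In P0.5 epithelium the count was 17 (32.1%), beside 70%, and in P0.5 fibers it was 24 (45.3%), beside 68.8%. The keratin share was thus below that of all genes in each of the 4 lists. Keratin gene bodies were shorter than those of all genes, with a median of 6506 against 16175 bp, and the part of length in the lower shares was not tested.

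The gap was wider at start sites. Promoter peaks were found at 12 keratin genes (22.6%) in E14.5 epithelium, where 68.3% of all genes had one, and at 11 (20.8%) in E14.5 fibers, where 69.2% did. In P0.5 epithelium 8 (15.1%) had one, beside 65%, and in P0.5 fibers 10 (18.9%), beside 62.8%. The Krtap genes, which encode the matrix proteins of the hair shaft and lie among the type I genes and elsewhere, had promoter peaks at 2, 2, 1 and 4 of 56 genes in the same order.

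**Figure D1:**
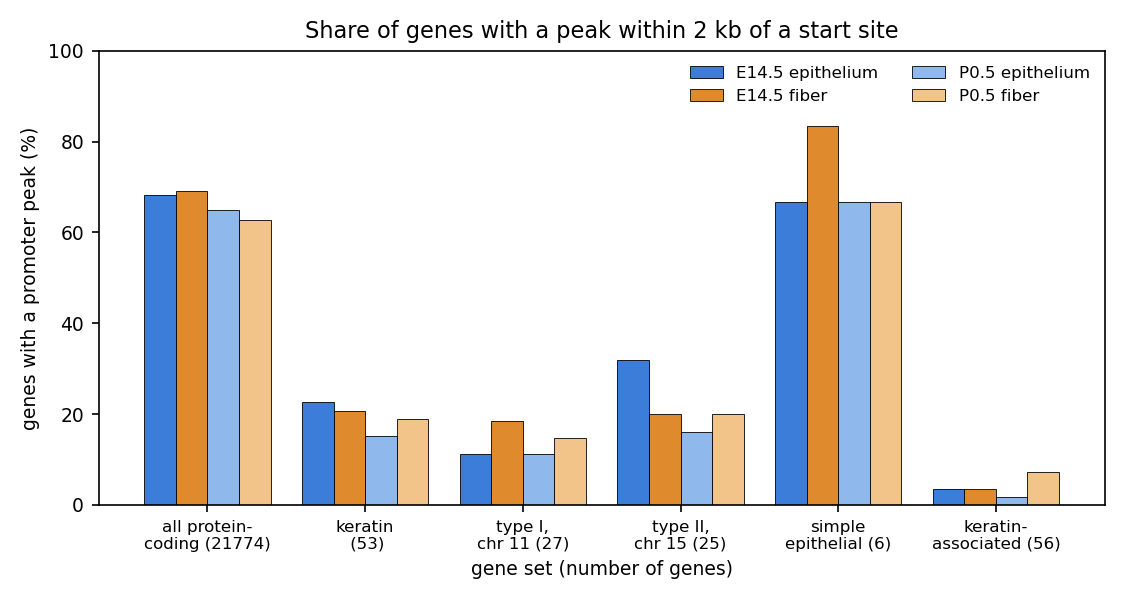
Bars give the percent of genes with a peak within 2 kb of a start site (y axis, from 0) for 6 gene sets (x axis, number of genes in brackets) in the 4 pooled lists (colors); each bar is 1 list and has no error bar. Keratin genes stood at 15.1% to 22.6%, all protein-coding genes at 62.8% to 69.2%, and the simple epithelial keratins at 4 or 5 of 6 genes.

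The best peaks of keratin genes ranked behind those of other genes. Peaks were ranked by the authors' fold enrichment within a list, and the rank is given as a percent of the list, so that a small value is a strong peak. The median rank of the best peak of a keratin gene was 35.9% and 40.2% in epithelium and fibers at E14.5, and 52.3% and 41.8% at P0.5. Over all genes with a peak the medians were 7.91%, 6.38%, 13.3% and 11.4%. A longer gene has more room for a peak, and the part of length in this difference was not tested either. Fold values are coarse, with 101 distinct values in the P0.5 fiber list, so that many peaks there share a rank such as 34.7%, 48.9% or 69.2%.

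Type II genes had peaks more often than type I genes. Of the 25 type II genes, 13, 13, 10 and 16 had a peak in the 4 lists (52%, 52%, 40% and 64%). Of the 27 type I genes of chromosome 11, 7, 9, 6 and 7 did (25.9%, 33.3%, 22.2% and 25.9%). Beside 73.3%, 74%, 70% and 68.8% of all genes, both types were lower in each list, and the type II share of P0.5 fibers came nearest. Type II gene bodies were longer, with a median of 7795 bp against 5554 bp. Peaks of any position, counted along the whole cluster, showed the same order per length: the type II cluster held 67.1, 71.6, 53.4 and 59.4 peaks per Mb, and the type I cluster 16.4, 24.1, 8.68 and 19.3. The chromosomes differ the other way, with 61.2, 73.2, 34.3 and 41.2 peaks per Mb on chromosome 11 and 42.8, 54.7, 25.6 and 29.7 on chromosome 15. The type II cluster thus stood above its chromosome and the type I cluster below its own in all 4 lists. The type I span includes a stretch without keratin genes, from the end of Krt40 at 99543220 to the start of Krt33a at 100011199. The part of this stretch in the lower density was not tested.

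Counted by gene, the lists overlapped less at keratin genes than at genes in general. The part of gene length and peak strength in this was not tested. Counted by peak, as given below, E14.5 fibers stood above all peaks (67.9% beside 55.9%) and the other lists below. Of the keratin genes with a peak at E14.5, 17 were shared by epithelium and fibers, which is 81.0% of the 21 in epithelium and 73.9% of the 23 in fibers, against 97.9% and 96.9% for all genes. At P0.5, 13 were shared, 76.5% of the 17 in epithelium and 54.2% of the 24 in fibers, against 92.8% and 94.4% for all genes. Between the stages, epithelium shared 14 genes, 66.7% of those at E14.5 and 82.4% of those at P0.5, against 94.1% and 98.5% for all genes. Fibers also shared 14, which is 60.9% and 58.3%, against 90.5% and 97.3% for all genes. In all, 11 keratin genes had a peak in 4 lists (Krt7, Krt8, Krt10, Krt18, Krt19, Krt40, Krt77, Krt86, Krt87, Krt88 and Krt90), 4 in 3 lists, 8 in 2 lists, 13 in 1 list and 17 in none. The shares for 4 lists, 3, 2, 1 and none were 20.8%, 7.55%, 15.1%, 24.5% and 32.1% of the keratin genes, beside 64.3%, 6.31%, 3.06%, 3.59% and 22.7% of all protein-coding genes. With a q value under 0.001, 5 genes had a peak in all 4 lists (Krt8, Krt40, Krt77, Krt88 and Krt90), and over nearly equal numbers of peaks 7 did (Krt7, Krt8, Krt10, Krt40, Krt86, Krt88 and Krt90). All protein-coding genes were not counted across the lists under these 2 settings, so these counts have no share beside them.

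**Figure D2:**
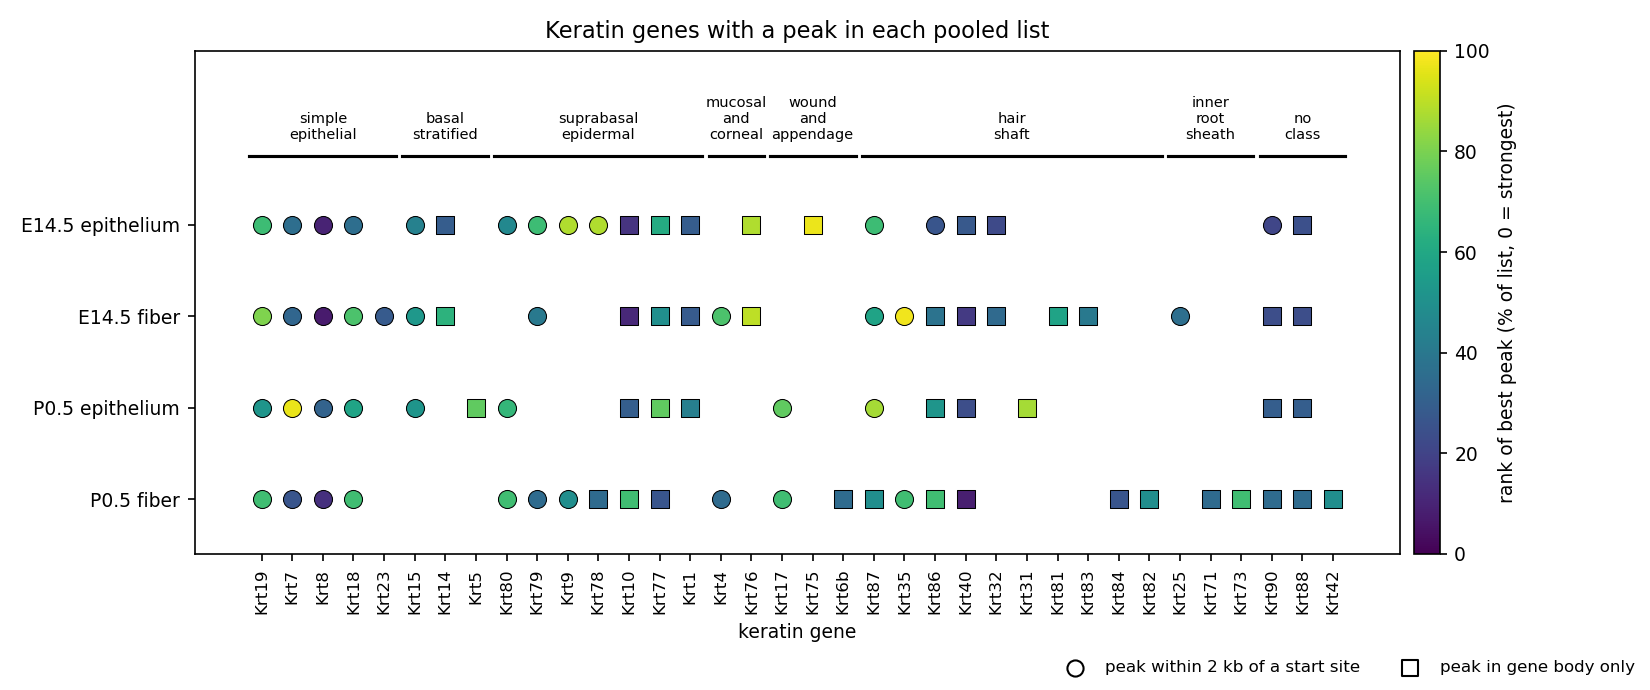
Each symbol is a keratin gene (x axis, grouped by class) with a peak in a pooled list (y axis). A circle marks a peak within 2 kb of a start site, a square a peak in the gene body only, and color gives the rank of the gene's best peak at either place as a percent of the list (0 is the strongest). Krt19, Krt7, Krt8 and Krt18 have circles in all 4 lists, and the darkest symbols are those of Krt8, Krt10 and Krt40.

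The simple epithelial keratins held the genes with promoter peaks in the most lists. Krt7, Krt8, Krt18 and Krt19, the keratins of single-layered and ductal epithelia, had a promoter peak in all 4 lists, and no other keratin gene did. They make up 7.55% of the 53 genes, beside 58.8% of all protein-coding genes with a promoter peak in all 4 lists. Krt8 alone had one in all 4 lists when peaks needed a q value under 0.001, a stricter limit that Krt18 missed in P0.5 fibers, Krt19 in both fiber lists and Krt7 in both P0.5 lists. Over nearly equal numbers of peaks, taken from the top of each list, Krt7 and Krt8 kept a promoter peak in all 4 lists, while Krt18 lost that of E14.5 fibers and Krt19 those of both E14.5 lists. A promoter window of 1 kb left 3 genes with one in all lists, without Krt18. The share of all genes with a promoter peak in 4 lists was not counted under these settings. With Krt23 added in E14.5 fibers, the class had promoter peaks at 4, 5, 4 and 4 of its 6 genes, 83.3% in E14.5 fibers and 66.7% in the others, beside 68.3%, 69.2%, 65% and 62.8% of all genes. Over nearly equal numbers of peaks both E14.5 counts were 3 of 6 (50%, beside 65.3% and 65.2% of all genes). With a q value under 0.001 the P0.5 counts were 3 in epithelium (50%, beside 64.1%) and 1 in fibers (16.7%, beside 56.9%), so the class stood above all genes only in part of the lists and settings. Krt23 had 1 peak, in the first intron 968 bases after the start site in E14.5 fibers (rank 28.4%), and Krt20, a keratin of the gut lining, had no peak.

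Krt8 carried the highest-ranked keratin peak of both E14.5 lists. Its best peak ranked at 9.74% (epithelium) and 7.27% (fibers) at E14.5, and at 31.6% and 14.0% at P0.5. In each case the summit lay in the first intron, 1252, 1259, 1275 and 1252 bases after the start site, so the same place was open in all groups. The −log10 q values of these peaks were 76.7, 128, 12.4 and 8.45. The E14.5 fiber peak was the widest, at 1060 bp. Percent ranks depend on the length of a list. Over nearly equal numbers of peaks the ranks were 15.9% and 14.8% at E14.5, against 31.5% and 13.9% at P0.5, so epithelium kept the order of the stages and fibers were nearly level.

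The Krt8 start site itself was not the open place. No list had a summit within 500 bases of it. Weaker peaks lay 635 bases upstream in E14.5 epithelium (rank 87.9%) and 1093 bases upstream in P0.5 fibers (rank 69.2%). P0.5 fibers also had 2 peaks further into the gene, in intron 4 (rank 34.7%) and exon 6 (rank 69.2%).

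Krt18, the partner of Krt8, starts 23874 bases from the Krt8 start site and is transcribed away from it. Its peak lay at the start site in E14.5 epithelium (summit 13 bases upstream, rank 35.9%), in P0.5 epithelium (41 bases upstream, rank 58.5%) and in P0.5 fibers (68 bases downstream, in exon 1, rank 69.2%). In E14.5 fibers no peak reached this place, and the only peak at Krt18 lay in intron 3, 1955 bases after the start (rank 71.6%). Krt18 therefore counts as having a promoter peak in all lists, although its start site was covered in 3 of them.

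Between the gene bodies of the pair the lists held 6, 3, 4 and 4 peak summits, those just upstream of either start site included. Overlapping peaks recurred on the way from the Krt8 start to Krt18: 9449 bases off in epithelium (rank 50.8%) and 9479 in fibers (rank 49.3%) at E14.5, and 9371 in newborn epithelium (rank 75.7%). A second place recurred nearer to Krt18, 21447 bases off in E14.5 epithelium (rank 61.2%), 21446 in P0.5 epithelium (rank 66.3%) and 21461 in P0.5 fibers (rank 91.3%). Close to it, overlapping peaks lay 20867 bases off in E14.5 epithelium (rank 77.7%) and 20924 in E14.5 fibers (rank 49.3%). These are outside the gene windows and did not enter the counts. Beyond the far end of Krt8, a peak 16056 bases into the type II cluster from its start site ranked at 15.6% in E14.5 epithelium, and one 16029 bases away ranked at 11.4% in E14.5 fibers. The P0.5 lists had none there.

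**Figure D3:**
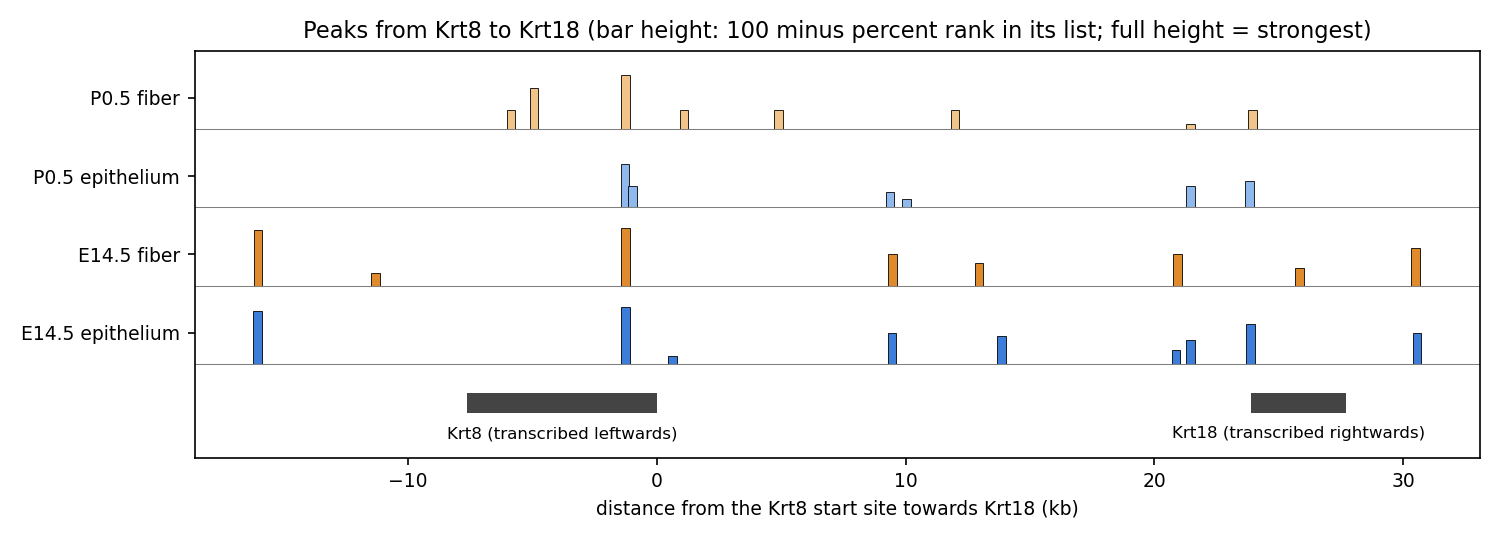
Bars mark peak summits by distance from the Krt8 start site towards Krt18 (x axis, kb) in the 4 lists (rows); bar height is 100 minus the percent rank in the list and bars have a fixed drawn width. The tallest bar in each row is the first intron of Krt8, and the row of E14.5 fibers has no bar at the Krt18 start site.

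At Krt7 the peaks lay on the start site and first exon. The E14.5 summits lay 59 bases after the start in epithelium (rank 55.5%) and 99 in fibers (40.2%). The P0.5 summits lay 136 bases after it in fibers (48.9%) and 83 bases upstream in epithelium (96.5%), where a second peak of the same rank lay 201 bases after the start. All 4 overlapped 1 merged region. Intron 6 held the highest-ranked Krt7 peak at E14.5, at 35.9% in epithelium and 32.5% in fibers, and neither P0.5 list had a peak there. In P0.5 fibers the highest-ranked peak was in intron 7 (26.4%), where E14.5 epithelium also had a peak (61.2%).

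Krt19, which marks ductal and many embryonic epithelia, had its best peaks at different places in the tissues. In both epithelium lists the best peak lay before the start site, 265 bases upstream at E14.5 (rank 68.5%) and 231 bases upstream at P0.5 (rank 52.3%). In the fiber lists this place had no peak, and peaks lay inside the gene, 762 bases after the start at E14.5 (rank 80.6%) and 572 bases after it at P0.5 (rank 69.2%). Inside the gene there was also a weak peak in E14.5 epithelium, 224 bases after the start in exon 1 (rank 97.0%), and a second peak in P0.5 fibers, 872 bases from another start site (rank 69.2%). No fiber peak had a q value under 0.001.

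The basal layer class has 3 genes, of which 2 (66.7%) had a peak in each of the first 3 lists, beside 73.3%, 74% and 70% of all genes. Over nearly equal numbers of peaks none had one in E14.5 fibers, beside 70.1% of all genes. With a promoter window of 1 kb, which leaves out the peaks of Krt15, the count was 1 (33.3%) in each of these 3 lists. All genes then stood at 72.8%, 73.6% and 69.6%. Krt15 had a peak upstream of the start site in 3 lists, at 1247 bases in epithelium (rank 43.5%) and 1174 in fibers (rank 53.3%) at E14.5, and at 1227 in P0.5 epithelium (rank 52.3%). The P0.5 fiber list had none. Krt14 had an intron peak in both E14.5 lists (ranks 29.0% and 64.1%) and none at its start sites. Krt5, its partner, had 1 peak in exon 7 in P0.5 epithelium (rank 75.7%). None of the 3 genes had a peak in P0.5 fibers, where 68.8% of all genes did.

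The suprabasal epidermal keratins had a peak at 7, 4, 4 and 6 of 8 genes, and a promoter peak at 4, 1, 1 and 3. The shares with a peak were 87.5%, 50%, 50% and 75%, beside 73.3%, 74%, 70% and 68.8% of all genes, so the class was above all genes in E14.5 epithelium and P0.5 fibers. This did not hold with a q value under 0.001, where 5 genes (62.5%, beside 72.5% of all genes) and 3 genes (37.5%, beside 61.6%) had a peak in those lists. Over nearly equal numbers of peaks the count in E14.5 epithelium was 3 (37.5%, beside 70.3%). Its promoter shares were 50%, 12.5%, 12.5% and 37.5%, each below that of all genes. Krt10, the type I partner of Krt1, had no promoter peak in any list, while exon 7 held one of the strongest keratin peaks: rank 15.2% in epithelium and 11.2% in fibers at E14.5, and 29.6% in newborn epithelium. In P0.5 fibers its peak was weak (rank 69.2%) and its summit was in an intron, 2890 bases after the start site against 3310 to 3315 in the other lists. Krt1 had a peak in the last coding exon in the other 3 lists (ranks 29.0%, 28.4% and 42.9%). Krt2 had no peak.

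Krt80 had its peak in the first exon in the epithelium lists, 157 bases after the start at E14.5 (rank 46.8%) and 267 at P0.5 (rank 66.3%). E14.5 fibers had no Krt80 peak, and 1 peak lay 2024 bases after the start in P0.5 fibers (rank 69.2%). Krt79 had promoter peaks at 3 different places: 1669 bases upstream in E14.5 epithelium (rank 77.7%), 121 bases downstream in E14.5 fibers (58.1%) and 362 bases upstream in P0.5 fibers (34.7%). Krt9, a keratin of palm and sole skin, had 1 region just before its start site, at 65 bases in E14.5 epithelium (rank 87.9%) and 75 in P0.5 fibers (rank 48.9%).

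The mucosal and corneal keratins had a peak at 1, 2, 0 and 1 of 5 genes (20%, 40%, 0% and 20%), beside 73.3%, 74%, 70% and 68.8% of all genes. Krt12, the keratin of the corneal epithelium, had no peak, nor had Krt13 and Krt24. Krt76 had a weak peak in its last coding exon in both E14.5 lists (ranks 87.9% and 90.1%). Krt4, a keratin of the esophageal and oral lining, had a start-site peak in both fiber lists, 127 bases downstream at E14.5 (rank 71.6%) and 27 bases upstream at P0.5 (rank 34.7%), and no peak in either epithelium list. The wound and appendage keratins had a peak at 1, 0, 1 and 2 of 5 genes (20%, 0%, 20% and 40%), beside 73.3%, 74%, 70% and 68.8% of all genes. Krt17 had promoter peaks at P0.5, 623 bases upstream in epithelium (rank 75.7%) and 585 bases downstream in fibers (rank 69.2%). Krt6b had a peak in its 3′ UTR in P0.5 fibers (rank 34.7%), and Krt75 one in its 3′ UTR in E14.5 epithelium (rank 97.0%). Krt6a and Krt16, which are induced in injured skin, had none.

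Hair shaft keratins had a peak at 4, 7, 4 and 6 of 15 genes (26.7%, 46.7%, 26.7% and 40%), beside 73.3%, 74%, 70% and 68.8% of all genes. With a q value under 0.001 the count was 2 (13.3%) in either P0.5 list, beside 68.7% of all genes in epithelium and 61.6% in fibers. Over nearly equal numbers of peaks it was 4 (26.7%, beside 70.1%) in E14.5 fibers. Krt40 was the best placed in all lists but E14.5 epithelium, where Krt32 and Krt86 (26.4%) came first, and had a peak at the border of intron 4 and exon 5 in all 4 lists, at ranks of 27.7%, 17.1%, 23.6% and 8.49%. This made it the highest-ranked keratin peak of both P0.5 lists. Krt32 had an intron peak in the E14.5 lists (22.5% and 34.2%). Krt35 had a weak peak within 2 kb of its start in the fiber lists (97.7% and 69.2%). Krt87 had a start-site peak in the first 3 lists (68.5%, 58.1% and 86.7%) and in P0.5 fibers a peak in intron 7 (48.9%). Part of the Krt87 region matches Krt81 and Krt86 over at least 75 bases at 90% identity or more, and it was the only 1 of the 69 regions with such a copy on chromosomes 11 and 15. The inner root sheath keratins had a peak at 0, 1, 0 and 2 of 7 genes (0%, 14.3%, 0% and 28.6%).

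Peaks at the members were merged across lists into 69 regions, 18 at type I genes of chromosome 11, 49 at type II genes and 2 at Krt18. Of these, 29 overlapped a promoter window. By number of lists, 44 regions (63.8%) were seen in 1 list, 13 (18.8%) in 2, 5 (7.25%) in 3 and 7 (10.1%) in all 4, close to the 59.5%, 18.4%, 11.3% and 10.9% of the 185271 regions made in the same way from all peaks. Regions seen in P0.5 fibers alone were the most frequent kind, with 23 (33.3%, beside 12.6% of all regions), of which 7 had a q value under 0.001. Those of E14.5 alone numbered 9 in epithelium (4 under 0.001), which is 13.0% beside 12.9%, and 8 in fibers (7 under 0.001), which is 11.6% beside 29.3%. Those of newborn epithelium alone numbered 4 (2 under 0.001), which is 5.80% beside 4.63%.

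Peaks of P0.5 fibers at keratin genes recurred least in the other lists. Of the 36, 12 (33.3%) overlapped a peak of another list, beside 62.3% of all P0.5 fiber peaks. The E14.5 shares were 70% of 30 against 75.8% in epithelium and 67.9% of 28 against 55.9% in fibers, and in newborn epithelium 81.0% of 21 against 85.2%. The P0.5 fiber list also holds the weakest calls: 48.8% of its peaks, and 36.1% of those at keratin genes, had a q value under 0.001, against 80.5% to 87.9% of the peaks of the other lists. Its part in the counts was not tested.

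The regions seen most often were GC-rich. Windows of 300 bases at the summits of the 12 regions found in 3 or 4 lists had a median GC content of 64%, those of the 44 regions in 1 list 55.8%, and all 69 together 56.7%. The lists as a whole had medians of 53%, 52%, 55% and 56.3%, and keratin gene bodies 50.8%. Regions found in 3 or 4 lists were not measured over all peaks, so a trait of keratin regions cannot be told from one of recurring regions. The Krt10 and Krt7 windows had a GC content of 68% and that of Krt8 60.7%.

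Away from start sites, summits at type II genes gathered in the last coding exon. Of the 17 summits in E14.5 epithelium that lay over 2 kb from a keratin start site, 7 (41.2%) were in the last coding exon, beside 2.42% for summits in all protein-coding genes. The count for E14.5 fibers was 9 of 17 (52.9%, beside 1.86%). At P0.5 it was 5 of 10 (50%, beside 2.94%) in epithelium and 3 of 24 (12.5%, beside 4.79%) in fibers. The coding part of that exon took up a median of 2.35% of a keratin gene and 1.15% of any gene. This pattern was noticed in the data, and its counts are a description of it.

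All of these summits belonged to type II genes. Merged, they gave 10 regions at 10 genes, Krt1, Krt76, Krt77, Krt79, Krt81, Krt83, Krt84, Krt86, Krt88 and Krt90, and 5 of them were among the 12 regions found in 3 or 4 lists. No region of a type I gene had its summit in the last coding exon. In Krt10 the last coding exon has 7 coding bases, and the glycine-rich part shown above lies in the exon before it.

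**Figure D4:**
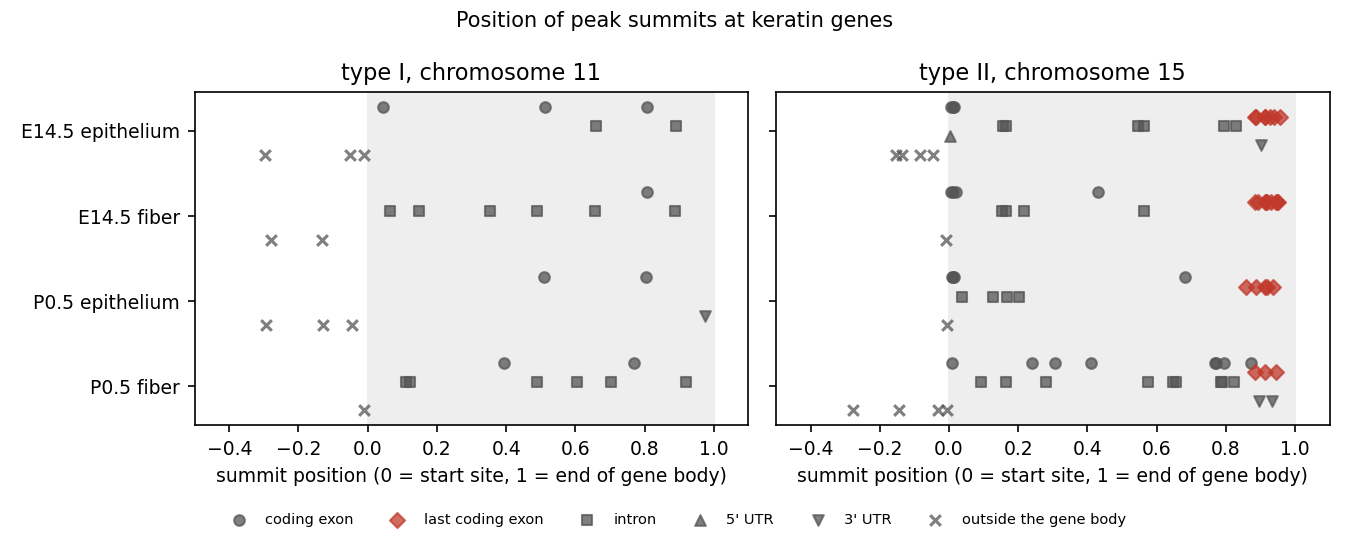
Peak summits of type I (left) and type II (right) keratin genes by position along the gene body (x axis, 0 is the start site and 1 the far end; shaded), in rows for the 4 lists, with symbols for the part of the gene; symbols are spread vertically by part. The last coding exon (red diamonds) holds 7, 9, 5 and 3 summits of type II genes and none of type I genes.

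Krt88 and Krt90 had the highest-ranked of these regions in the first 3 lists, and in P0.5 fibers the Krt84 region, found in that list alone, ranked ahead of both (26.4%). The Krt90 region ranked at 20.9%, 23.5%, 29.6% and 34.7% of the lists, with the P0.5 fiber summit in the adjoining 3′ UTR. The Krt88 region ranked at 24.3%, 23.5%, 29.6% and 34.7%. The Krt86 region was found in all 4 lists, at 26.4%, 38.0%, 52.3% and 69.2%. The Krt79 region held the best peak of that gene in both E14.5 lists, at 68.5% in epithelium and 40.2% in fibers. The Krt77 region was found in the first 3 lists, at 61.2%, 49.3% and 75.7%. Over nearly equal numbers of peaks, Krt88 stood at 39.7% in epithelium and 47.7% in fibers at E14.5, and Krt90 at 34.1% and 47.7%, behind their P0.5 ranks, so no order between the stages is read from these ranks.

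The last coding exons of type II genes differ from the rest of their coding sequence and from those of type I genes. Glycine codons made up a median of 22% of the codons there in the 25 type II genes, against 7.64% in the rest of their coding sequence. In the 27 type I genes the medians were 3.23% and 8.17%. GC content had a median of 61.0% in type II and 51.4% in type I last coding exons. Within type II, the 10 genes with a region there had a GC content of 59.2% to 69.8% (median 63.4%) and the 15 genes without one 52.8% to 64.9% (median 58.5%), so the ranges overlapped. Their glycine shares were alike in the middle, with medians of 22.1% and 22%.

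**Figure D5:**
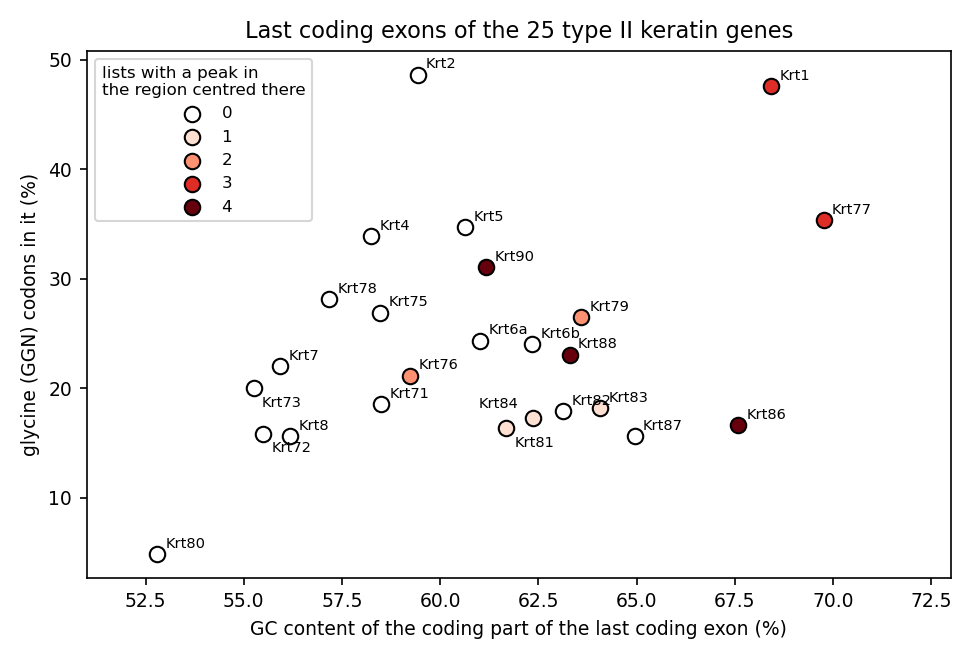
Each point is 1 of the 25 type II keratin genes, by the GC content of its last coding exon (x axis, percent) and the share of glycine codons in it (y axis, percent). Fill gives the number of lists with a peak in a region whose summit lies there; filled points run from 59.2% to 69.8% GC, and the highest glycine share, 48.6%, is that of Krt2, an open point, followed by 47.6% in Krt1, a filled one.

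Genes that work with keratins were counted in the same way, beside promoter peaks at 68.3%, 69.2%, 65% and 62.8% of all protein-coding genes. Of 19 genes of desmosomes and plakins, which anchor keratin filaments to the membrane, 12, 13, 11 and 13 had promoter peaks (63.2%, 68.4%, 57.9% and 68.4%), near the share of all genes, with the linkers Dsp at rank 23.5% and Jup at 1.21% in E14.5 fibers. Of 14 transcription factors of the epidermis, 13, 13, 12 and 12 had one (92.9% at E14.5 and 85.7% at P0.5), among them Klf4 (4.59% in E14.5 fibers) and Tfap2a (7.10%), while Trp63, a regulator that stratified epithelia need, had no promoter peak and a peak in the gene body in the first 3 lists (46.8%, 49.3% and 47.1%). Of 13 genes of the cornified envelope, 1, 3, 2 and 3 had one (7.69%, 23.1%, 15.4% and 23.1%). All 13 other cytoplasmic intermediate filament genes had one in the first 3 lists and 12 (92.3%) in P0.5 fibers, with Vim at 3.43% and Bfsp1 at 0.882% in E14.5 fibers. The median of these genes there was 15.9%, behind both, with Prph at 22.8% and Nefl at 31.0%. The count therefore does not single out the filament genes named above for the lens.

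The tissue labels were checked against marker genes. All 4 markers of lens epithelium and all 6 of lens fibers had promoter peaks in every list, and the median rank of the fiber markers was ahead in fibers, at 1.501% against 9.04% at E14.5 and 3.82% against 19.3% at P0.5. The median of the epithelium markers was ahead in epithelium, at 5.15% against 10.9% at E14.5 and 11.3% against 29.1% at P0.5. Among them, Pax6 went the other way at E14.5 (3.73% in epithelium, 0.479% in fibers) and at P0.5 (6.64% and 6.31%). Cdh1 did so at E14.5 (22.5% and 19.5%). Of the 6 markers listed for cornea and epidermis, 5 are keratins already described, which cannot serve as a check on their own family. The other, Ivl of the cornified envelope, had a promoter peak in E14.5 fibers (rank 80.6%) and no peak in the other lists. Of 3 vascular endothelial markers, 2, 3, 2 and 2 had one, and of 2 red cell markers, 1, 0, 0 and 0. Cells of other types in the dissected tissue were not counted, and their part in the keratin peaks was not tested.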

How the data were processed

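ATAC-seq peaks of mouse lens were analysed in 8 libraries, 2 for each of 4 groups. Per the submitters' processing notes and the study's methods, the authors trimmed reads (Trim Galore 0.4.1), mapped them to mm10 (Bowtie2 2.3.3.1), removed mitochondrial and duplicated reads (SAMtools 1.2, Picard 2.1.1), combined both libraries of each group and ran MACS2 2.1 on the combined fragments at a q value of 0.05, with 0 control libraries named. Whether insertion positions were shifted is not given in the sources used here. The deposited lists give, for each peak, a fold enrichment ratio over local background, a −log10 p and a −log10 q value made by MACS2 and the offset of the summit. The authors' fold enrichment was used only to rank peaks within a list, with ties at the best rank, since the lists differ in depth and background. P0.5 is called P1 in the peak names. A summit-based score column was not used.

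Gene bodies and start sites came from curated RefSeq transcripts of GRCm38 (774 of 21774 protein-coding genes, and 0 keratin genes, have none and kept their gene record). A peak belonged to a gene by an overlap of at least 1 bp. Peaks of the 4 lists within 10 bp were merged into regions. Python 3.11.15, pandas 2.3.3, numpy 2.4.6, pysam 0.24.0, blastn 2.17.0+ and matplotlib 3.10.9 were used, and gene assignment was tested on simulated peaks. Per-sample columns left unmapped numbered 0.

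Groups came from the sample titles. No test was run, because pooled lists hold no values per library. Depth behind a peak is unknown in the lists. The 53 members, the gene lists and 7 keratin classes were chosen with earlier results of these data known, and 4 genes stayed in no class. Keratin genes with a peak in any list could be named, and those without one were counted and named by class. Values in every list are given for the 17 that have a promoter peak in at least 2 lists or a peak within the first 25% of any list. Alternatives were a q value of 0.001, equal numbers of peaks (the 58592 highest of each list, with all peaks tied at the limit kept), a promoter window of 1 kb, summits in place of overlaps, predicted transcripts and ranking by −log10 p. The RefSeq promoter table matched 36 of the 53 members (67.9%, under the 80% needed), so a check of base composition over keratin promoters is void and was not made. The ENCODE blacklist was not used here.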

Additional observations from a re-analysis of the deposited data

How the results depend on the processing

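The low share of keratin genes with a peak held its order against all protein-coding genes in every list under each alternative. Counts over the family and over type I or II moved by over 1.5 times under 3 settings. With a q value under 0.001, P0.5 fibers had 12 keratin genes with a peak and 3 with a promoter peak, and 1 type I gene with a peak against 11 type II genes. Of all genes, 61.6% then had a peak and 56.9% a promoter peak in this list. With equal numbers of peaks (58502 to 62922 on the chromosomes, as tied peaks stayed together), the E14.5 counts fell to 13 with a peak in either tissue, and to 6 (epithelium) and 4 (fibers) with a promoter peak. Of all genes, 70.3% (epithelium) and 70.1% (fibers) had a peak under this setting, and 65.3% and 65.2% a promoter peak. Type II genes with a peak then numbered 7 (epithelium) and 8 (fibers), and type I genes 5 in fibers. The P0.5 fiber list lost no peak under this setting and kept its 24 genes with a peak and 10 with a promoter peak. With the summit within 500 bases of a start site, a setting chosen after seeing the data, the count of promoter peaks was 4 for E14.5 fibers. This is 7.55%, beside 62.0% of all genes. It was 5 (9.43%) for either P0.5 tissue, beside 60.2% in epithelium and 56.5% in fibers. The E14.5 epithelium count was 8 (15.1%, beside 61.9%) and stayed within 1.5 times. The order of the lists by number of keratin genes changed under equal numbers of peaks, so no order between them is stated. Type II genes with a peak outnumbered type I genes in each list under each of the 5 other settings that recounted them. The remaining counts of this kind stayed within 1.5 times, as did the 55 ranks of the 17 genes given in full taken by −log10 p and the 55 taken by summits. Counts over the classes are small: of 64, 17 fell by more than that with a q value under 0.001, 15 over equal numbers of peaks and 9 with a promoter window of 1 kb. Over equal numbers of peaks 10 of these 55 ranks were lost with their peak, those of Krt19 and Krt87 in both E14.5 lists, of Krt4, Krt15, Krt18 and Krt35 in E14.5 fibers, and of Krt9 and Krt79 in E14.5 epithelium. Of the remaining 45, 18 moved further, each of them to a lower place in an E14.5 list. No paired analysis was possible because each group is 1 pooled list, and for the same reason no library could be left out. The lists hold no reads, so a place without a peak was not called open, which does not show that it was closed.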

Other observations

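The intron peaks of Krt7 made up a further group. Merged over the lists, 5 regions lay in introns 2, 6 and 7 of this gene, which spans 15404 bp, and 3 of them were found in 2 lists. Krt80, the longest member at 21848 bp, had intron regions in 1 list each. Krt82, which encodes a hair cuticle keratin, had 3 regions, all in P0.5 fibers and at ranks of 48.9% and 69.2%.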
